A study of Mus musculus with 6 samples.

Results

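Short complementarity-determining region 3 (CDR3) sequences of T cell receptor β chains (TCR-β), those of 11 residues or fewer counted from the leading cysteine (C) to the closing phenylalanine (F) or tryptophan (W), were described in tumors and spleens of mice. They were taken from the 6 deposited tables by that length alone, among sequences with no stop or frame mark that begin with C and end with F or W. A clonotype is a CDR3 amino acid sequence with its TRBV and TRBJ gene. The rule found 8390 distinct short clonotypes of 177503 distinct clonotypes of any length, which is 4.73%. Over the 6 libraries they made up 9137 of 188602 clonotype entries and 21591 of 485470 reads. They held 6928 distinct CDR3 sequences, and 1 short clonotype ended in W.

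The study took C57BL/6 mice with MO4 tumors, which are B16F10 melanoma cells made to express ovalbumin. Each hindlimb received 100000 tumor cells on day 0. IFN-α-iPSC-pMC, myeloid cells grown from induced pluripotent stem (iPS) cells and named for interferon-α, were injected beside the right tumor, 1000000 at a time. The injections fell on 3 successive days from day 5 and on days 12 and 13, and tumor RNA was taken on day 14. The treated tumor is the injected right one, the distant tumor is the one in the other hindlimb, and the spleens also come from treated mice, so no group is free of the treatment. The series names 2 mice and each group has 2 libraries, numbered 1 and 2, so a number was taken to stand for a mouse. Age and sex of the mice were not given in the labels, and the tables hold TCR-β sequences only, so the tissue labels could not be checked against other marker genes.

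A TCR-β chain gene is assembled in each developing T cell by joining a V, a D and a J segment. Bases are trimmed from the segment ends and others are added at the joints, and the joined stretch encodes CDR3, the loop of the receptor that contacts the peptide held by an MHC molecule. The first residues of CDR3 come from the V segment and the last from the J segment, so the length of CDR3 depends on how many segment bases are kept and how many are added.

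The short clonotypes most read or most widely found are shown first as examples, with the V and J genes and the libraries where they were most read. The first 3 were the most read short clonotypes of treated tumor 1, the next 3 those of treated tumor 2. The following 2 were read mostly in a distant tumor. Of the last 3, 2 were found in all 6 libraries, and the last is a leading clonotype of spleen 1 with no residue between its V and J parts.
TRBV12-1 with TRBJ2-7, first in treated tumor 1: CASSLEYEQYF
TRBV19 with TRBJ1-4, shared by both tumors of number 1: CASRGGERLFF
TRBV13-1 with TRBJ1-1, also in both tumors of number 1: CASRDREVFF
TRBV29 with TRBJ2-7, shared by both tumors and the spleen of number 2: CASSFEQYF
TRBV31 with TRBJ2-2, second in treated tumor 2: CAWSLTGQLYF
TRBV13-1 with TRBJ2-7, next in treated tumor 2: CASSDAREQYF
TRBV13-3 with TRBJ2-7, first in distant tumor 2: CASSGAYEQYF
TRBV19 with TRBJ1-2, second in distant tumor 1: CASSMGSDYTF
TRBV3 with TRBJ2-7, in all libraries: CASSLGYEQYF
TRBV3 with TRBJ2-5, in all libraries: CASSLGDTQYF
TRBV13-2 with TRBJ2-7, mostly in the spleens: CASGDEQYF

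The germline segments behind them were read from the GENCODE annotation of the GRCm38 build, chromosome 6, since the TRBJ gene was the clearest mark of a short CDR3. Capitals mark the bases that fall within CDR3, and the sequences run 5′ to 3′ on the coding strand. The 5 TRBJ genes shown are the 2 overrepresented among short clonotypes, the gene of equal germline length that was not, and the 2 most depleted.
TRBJ2-7, chr6:41543810-41543856: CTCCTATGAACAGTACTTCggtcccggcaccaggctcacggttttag
TRBJ1-1, chr6:41533864-41533911: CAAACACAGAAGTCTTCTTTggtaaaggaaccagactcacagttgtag
TRBJ1-2, chr6:41534001-41534048: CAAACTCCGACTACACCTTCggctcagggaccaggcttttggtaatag
TRBJ2-2, chr6:41542957-41543007: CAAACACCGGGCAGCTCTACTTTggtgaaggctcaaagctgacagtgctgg
TRBJ1-6, chr6:41535554-41535606: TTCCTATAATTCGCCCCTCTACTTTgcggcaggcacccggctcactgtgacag

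The TRBV ends shown are those of the genes that differed between short and longer clonotypes, with TRBV2, whose CDR3 part is the same as that of TRBV5. The spans are those of the annotated genes, and the last bases of each coding sequence are printed.
TRBV29, chr6:41271394-41271881: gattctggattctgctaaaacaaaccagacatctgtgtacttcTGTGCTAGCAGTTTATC
TRBV20, chr6:41188273-41188977: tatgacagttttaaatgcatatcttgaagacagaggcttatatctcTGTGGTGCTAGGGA
TRBV31, chr6:41557691-41558452: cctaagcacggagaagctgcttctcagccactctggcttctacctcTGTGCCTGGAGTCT
TRBV4, chr6:41059394-41059886: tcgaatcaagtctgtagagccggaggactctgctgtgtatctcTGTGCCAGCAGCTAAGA
TRBV5, chr6:41062332-41062803: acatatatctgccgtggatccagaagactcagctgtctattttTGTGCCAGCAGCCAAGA
TRBV2, chr6:41047340-41047995: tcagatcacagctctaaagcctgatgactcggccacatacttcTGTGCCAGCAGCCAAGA

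The libraries held 41115 to 132494 reads and 6565 to 89164 clonotypes that met the rule on marks and ends. A single read was worth 0.000755% to 0.00243% of a library, and a count of 0 allows up to 3 reads, 0.00226% in spleen 2 to 0.0073% in distant tumor 2. Unmarked sequences that do not run from C to F or W held 1.80% to 2.85% of unmarked reads and were left out, among them 32 to 200 entries of 11 residues or fewer per library. The reads come from PCR without molecular identifiers, so reads cannot be taken for molecules, and every interval or floor covers counting error only. The number of T cells behind a library is unknown, so more T cells of a clone and more receptor RNA per cell cannot be told apart. P-values over libraries measure the spread between libraries from 2 mice, while those of Fisher's test hold counting error of 2 single libraries only.

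At the threshold of 11 residues the share of short CDR3s was lower in each tumor than in either spleen, though a test over 6 libraries could not pass the threshold for p and the order depended on the setting. The spleens were almost alike. They made up 5.26% of reads in spleen 1 and 5.34% in spleen 2. Treated tumor 1 held 5.24%, against 2.23% for treated tumor 2. The distant tumors held 3.32% and 3.30%. All 4 tumor values lay below both spleen values, although the Wilson 95% interval of treated tumor 1, 5.09% to 5.40%, overlapped that of spleen 1, 5.12% to 5.41%. The mean was 3.52% ± 1.25 (SD, n = 4) in tumors and 5.30% ± 0.0555 (SD, n = 2) in spleens, a difference of -1.78 percentage points (two-sided exact permutation p = 0.2, where 0.0667 is the smallest this design allows).

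Counted once per clonotype, the order was the same. Short clonotypes numbered 3155 (5.04%) in spleen 1 and 4497 (5.04%) in spleen 2. The treated tumors held 548 (4.90%) and 192 (2.92%), and the distant tumors 390 (3.94%) and 355 (3.85%). Tumors averaged 3.90% ± 0.805 (SD, n = 4) against 5.04% ± 0.000879 (SD, n = 2) in spleens, a difference of -1.14 percentage points (exact permutation p = 0.2).

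Treated and distant tumors did not keep one order. In number 1 the treated tumor exceeded the distant tumor by 1.93 percentage points of reads and 0.953 of clonotypes. In number 2 it was lower, by -1.06 of reads and -0.929 of clonotypes. The mean difference was 0.433 percentage points of reads and 0.0123 of clonotypes, each with an exact permutation p = 1, where 0.333 is the smallest that 2 against 2 allows. Treated tumor 1 decides the sign for reads, since without it the difference was -1.07. Without the 10 most read clonotypes of each library it was -0.253, and the tumor against spleen difference shrank to -0.638. In that setting treated tumor 1 (6.26%) and distant tumor 1 (5.47%) exceeded both spleens (5.32% and 5.35%). With CDR3s of 12 residues counted as short, both treated tumors (17.5% and 19.0%) exceeded both spleens (16.7% and 17.2%), and with a threshold of 10 residues treated tumor 1 (1.23%) exceeded them (1.14% and 1.13%), also with clonotypes counted once (1.13% against 1.08% and 1.10%).

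**Figure D1:**
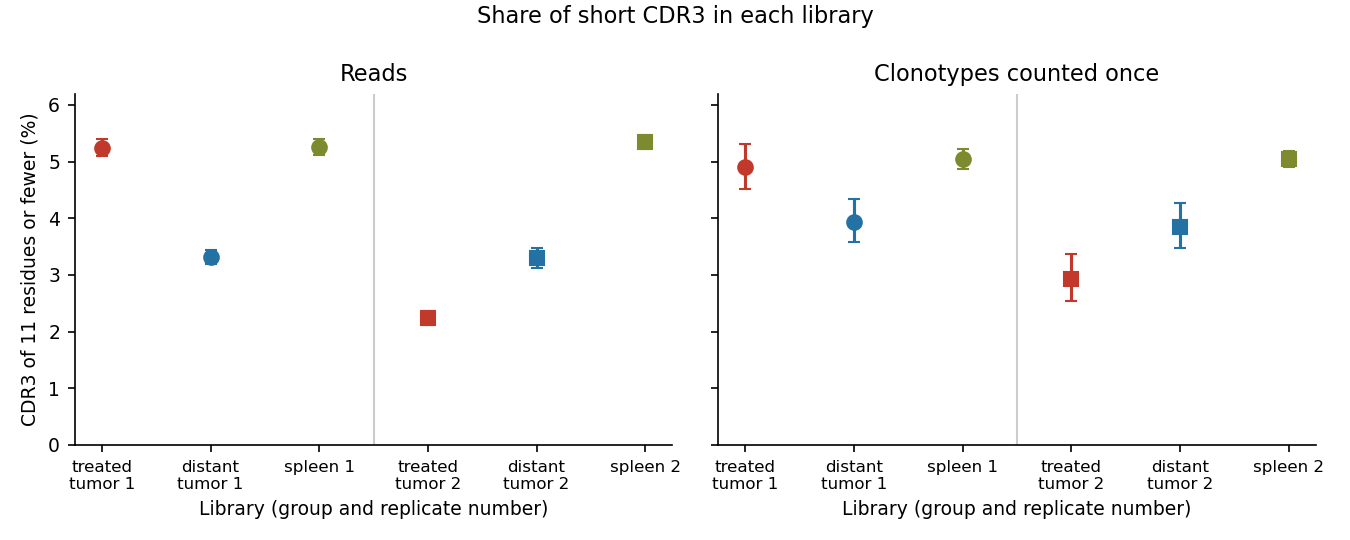
Percent of reads (left) and of clonotypes counted once (right) with a CDR3 of 11 residues or fewer, for each library of treated tumor, distant tumor and spleen. Circles are number 1 and squares number 2, bars are Wilson 95% intervals, and both spleens sit at 5.04% of clonotypes while the tumors spread from 2.92% to 4.90%.

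Most short CDR3s were at the upper edge of the class. Length 11 supplied 66.7% (treated tumor 2) to 78.6% (spleen 1) of a library's short clonotypes, and length 10 supplied 13.5% to 16.4%. Just inside the threshold, length 11 held 421, 306 and 2480 clonotypes in treated tumor 1, distant tumor 1 and spleen 1, and 128, 264 and 3515 in the libraries of number 2. Just outside it, length 12 held 1189, 910 and 6811 in number 1 and 855, 1045 and 9842 in number 2. Treated tumor 2 stood out at this edge, with the lowest share of its clonotypes at length 11 (1.95%) and the highest at length 12 (13.0%). CDR3s of 7 residues or fewer numbered 7 to 41 clonotypes and 7 to 48 reads per library.

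By reads, length 11 held 4.12% in spleen 1 and 4.21% in spleen 2. The treated tumors held 4.01% and 1.55%, the distant ones 2.66% and 2.29%, all below both spleens. Length 10 held 0.849% and 0.856% of spleen reads, and 0.256% (treated tumor 2) to 0.95% (treated tumor 1) of tumor reads. At length 9, 3 of the 4 tumors lay above both spleens, with 0.193% and 0.160% in the spleens, 0.236% and 0.322% in the treated tumors, and 0.110% and 0.370% in the distant tumors. Single clonotypes made up much of this, since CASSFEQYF gave 162 of the 177 reads of that length in treated tumor 2 and 107 of the 152 in distant tumor 2. Length 8 held 0.0591% and 0.0755% of reads in the spleens and 0.00868% to 0.0356% in the tumors, so the groups did not overlap. edgeR's quasi-likelihood test on reads per length called none of 13 lengths between tumors and spleens, so 0% were higher and 0% lower. At an unadjusted p under 0.05 there were 2 lengths, and DESeq2 called 4. For length 8 the fitted log2 difference, tumors minus spleens, was -1.92 (SE 0.595, adjusted p = 0.173 by edgeR), and for length 11 it was -0.67 (SE 0.381, adjusted p = 0.475). Length 8 turned to 0.23 when clonotypes were counted once. The count rested on single libraries, as 4 lengths passed without treated tumor 1, 3 of them short and all lower in tumors, and 4 passed without treated tumor 2, 2 of them short.

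Between treated and distant tumors edgeR likewise called none of the 13 lengths, 0% in either direction, with 3 at an unadjusted p under 0.05 and 1 called by DESeq2. Length 7 showed the largest fitted difference among the short lengths, 2.87 on the log2 scale (SE 1.17, adjusted p = 0.186 by edgeR). It rested on few reads. Treated tumor 1 had 8 reads of that length, treated tumor 2 had 42, of which 1 clonotype gave 35, and the distant tumors had 5 and 2. Without treated tumor 1, 3 lengths passed, 1 of them short and higher in the treated tumor and 1 short and lower, and without distant tumor 2, 2 passed, neither of them short.

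The J gene separated short from longer clonotypes in every library. TRBJ2-7, whose germline part of CDR3 is the shortest of the 12 TRBJ genes at 19 bases, was used by 43.8%, 35.4% and 37.6% of short clonotypes in treated tumor 1, distant tumor 1 and spleen 1, and by 40.6%, 45.4% and 37.0% in the libraries of number 2. Among longer clonotypes it was used by 17.7% to 19.6%, so the classes did not overlap. The means were 40.0% ± 3.98 and 18.5% ± 0.676 (SD, n = 6 libraries), a log2 ratio of 1.10 (SE 0.0446, adjusted p = 5.94e-32, edgeR quasi-likelihood test with the library as a block). TRBJ1-1, with 20 germline bases, was used by 7.81% to 17.6% of short and 6.34% to 10.2% of longer clonotypes and was higher among the short in 6 of 6 libraries (log2 ratio 0.75, SE 0.132, adjusted p = 2.46e-06 by edgeR). Those were the 2 of 12 TRBJ genes, 16.7%, that were higher among short clonotypes. The libraries come from 2 mice and share clonotypes, so the 6 are not independent, here and for the TRBV genes below. Over 16 alternative fits by edgeR or DESeq2 the adjusted p reached 7.14e-05 for TRBJ2-7 and 0.0499 for TRBJ1-1 at most.

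Another 6 of the 12 genes, 50%, were lower among short clonotypes by edgeR. TRBJ1-6, which carries the longest germline part at 25 bases, was used by a mean of 1.26% ± 1.20 of short and 4.94% ± 2.35 of longer clonotypes (SD, n = 6), a log2 ratio of -2.02 (SE 0.365, adjusted p = 2.46e-06 by edgeR). It was lower in 6 of 6 libraries. TRBJ2-2 stood at 2.40% against 5.57%, TRBJ2-3 at 4.46% against 10.2%, TRBJ2-1 at 6.93% against 12.1%, TRBJ2-4 at 5.70% against 8.86% and TRBJ1-3 at 3.31% against 4.70% as means over libraries. TRBJ2-2 and TRBJ1-3 were higher among the short in 1 library of 6, treated tumor 2. Shares of one class sum to 100%, so the rise of TRBJ2-7 lowers the rest. TMM scaling moved the median log2 ratio of the 12 genes from -0.63 to 0.0174, and under it 2 genes were higher and 2 lower. The log2 ratios under TMM were 1.71 for TRBJ2-7, 1.37 for TRBJ1-1, -1.40 for TRBJ1-6 and -0.77 for TRBJ2-2, while TRBJ2-4 was at -0.02 and turned to 0.02 with DESeq2.

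**Figure D2:**
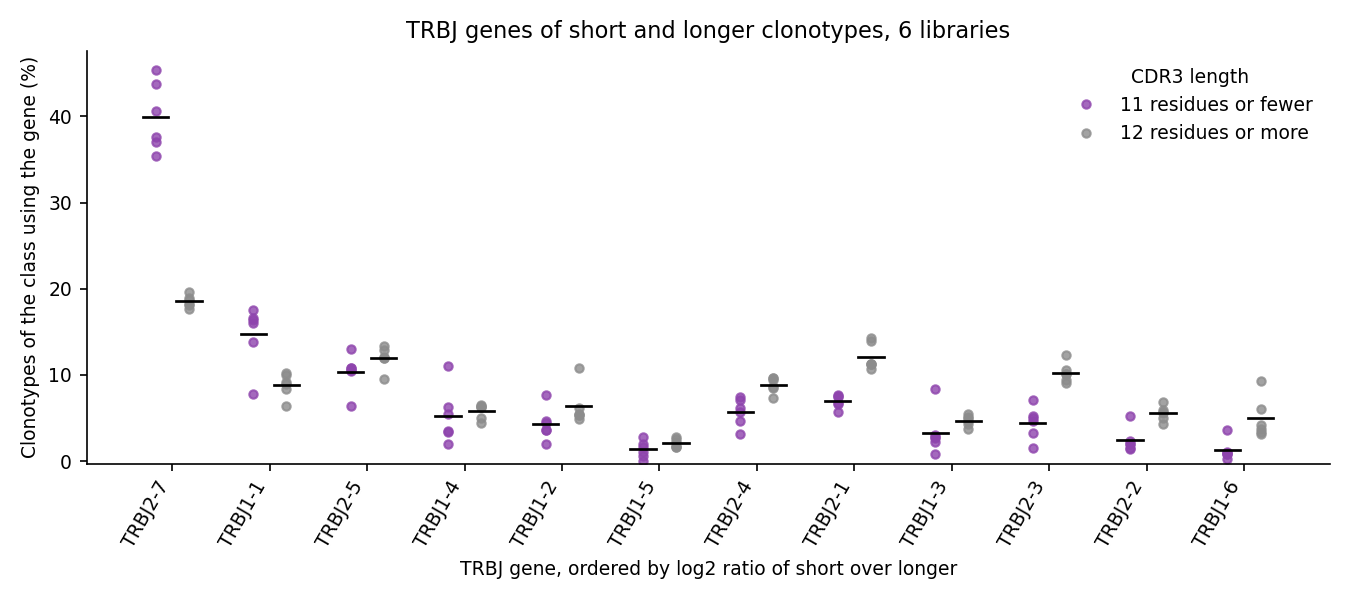
Percent of short (purple) and longer (grey) clonotypes that used each of 12 TRBJ genes, 1 point per library and a black line at the mean of the 6 libraries, with genes ordered by the log2 ratio of short over longer. TRBJ2-7 stands at a mean of 40.0% of short and 18.5% of longer clonotypes, with no overlap between the classes.

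Seen per gene, the share of a TRBJ gene's clonotypes that were short followed its germline length loosely. A median over libraries of 9.02% of TRBJ2-7 clonotypes and 7.48% of TRBJ1-1 clonotypes were short, against 1.27% for TRBJ1-6. Genes of equal germline length also differed, and the cause was not tested. TRBJ1-2 has the same 20 bases as TRBJ1-1, and 3.28% of its clonotypes were short. Its range of 1.26% to 4.37% overlapped the 3.58% to 9.20% of TRBJ1-1, though TRBJ1-1 was higher in each library. TRBJ1-4 with 23 bases stood at 3.48% and TRBJ2-3 with 21 bases at 2.29%. Across the 12 genes, Pearson's r between germline bases and the median share was -0.737 and Spearman's rho -0.648, and Pearson's r within single libraries ranged from -0.275 in treated tumor 2 to -0.801 in spleen 2. The genes share the same libraries and are given as a description.

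**Figure D3:**
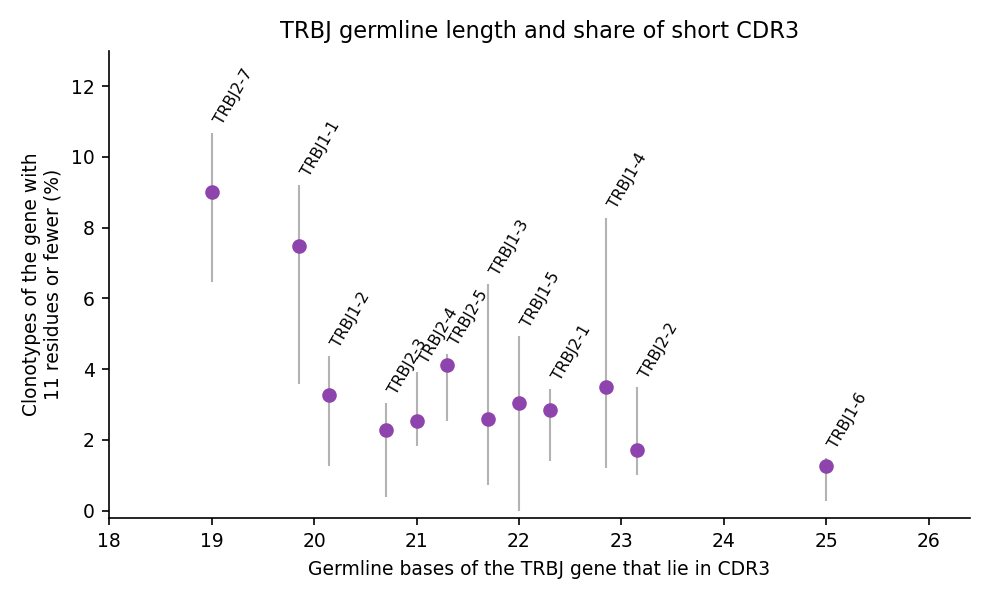
Germline bases of each TRBJ gene that lie in CDR3 (x axis, genes of equal length set side by side) and the percent of the gene's clonotypes with 11 residues or fewer, as the median of 6 libraries with bars from the lowest to the highest library. TRBJ2-7 with 19 bases has the highest median, 9.02%, and TRBJ1-6 with 25 bases the lowest, 1.27%.

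Among TRBV genes the clearest difference was the lower use of TRBV5 by short clonotypes. TRBV5 was used by 1.09%, 2.05% and 2.47% of short clonotypes in treated tumor 1, distant tumor 1 and spleen 1, and by 1.56%, 3.10% and 2.76% in number 2. Among longer clonotypes it was used by 7.31% to 15.7%, so it was lower among the short in 6 of 6 libraries (log2 ratio -2.01, SE 0.268, adjusted p = 0.00206 by edgeR). It was 1 of 21 TRBV genes tested, 4.76%, that was lower. A median of 1.02% of TRBV5 clonotypes were short, and 2.28% of those of TRBV2, which ends in the same germline bases. Among the TRBV genes with 17 germline bases in CDR3 the median ran from that 1.02% to the 7.68% of TRBV29.

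Higher among short clonotypes were 4 of the 21 TRBV genes, 19%, and these calls were less firm. TRBV29 was used by a mean of 9.40% ± 2.62 of short and 5.13% ± 1.14 of longer clonotypes (SD, n = 6; log2 ratio 0.83, SE 0.222, adjusted p = 0.0334 by edgeR), higher in 6 of 6 libraries. TRBV20, one of 3 TRBV genes with 14 germline bases in CDR3, was used by 5.36% against 3.48% (log2 ratio 0.71, adjusted p = 0.0285 by edgeR, higher in 5 of 6). TRBV31, another of them and the TRBV gene that lies beyond the constant regions in inverted orientation, was used by 5.54% against 3.79% (log2 ratio 0.54, adjusted p = 0.0457 by edgeR, 6 of 6). The other gene of that length, TRBV30, was not called (adjusted p = 0.662 by edgeR), at a mean of 0.304% of short and 0.374% of longer clonotypes. Across 18 TRBV genes Pearson's r between germline bases and the median share of short clonotypes was -0.207, from -0.552 to 0.113 in single libraries, given as a description. Left out were TRBV1, TRBV19 and TRBV24, with no matched germline bases, and TRBV21 and TRBV23, with few longer clonotypes in a library. As annotated, TRBV3 had 21 bases, the only gene above 17, and it entered the correlation with that length. Whether its annotated end, which closes in CACA, is the end of its coding part was not tested. TRBV4 was used by 3.03% against 2.41% (log2 ratio 0.32, adjusted p = 0.0334 by edgeR, 6 of 6), and its printed germline end holds the stop codon TAA in the frame of CDR3. With TMM scaling, or without either spleen, none of the 4 passed, and counted by reads 1 gene passed in all, TRBV5, with TRBV4 at -0.13. TRBV19 had the second highest mean difference, 8.17% ± 5.22 against 4.32% ± 1.18, but its short share ran from 2.60% in treated tumor 2 to 15.6% in distant tumor 1 and it did not pass.

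**Figure D4:**
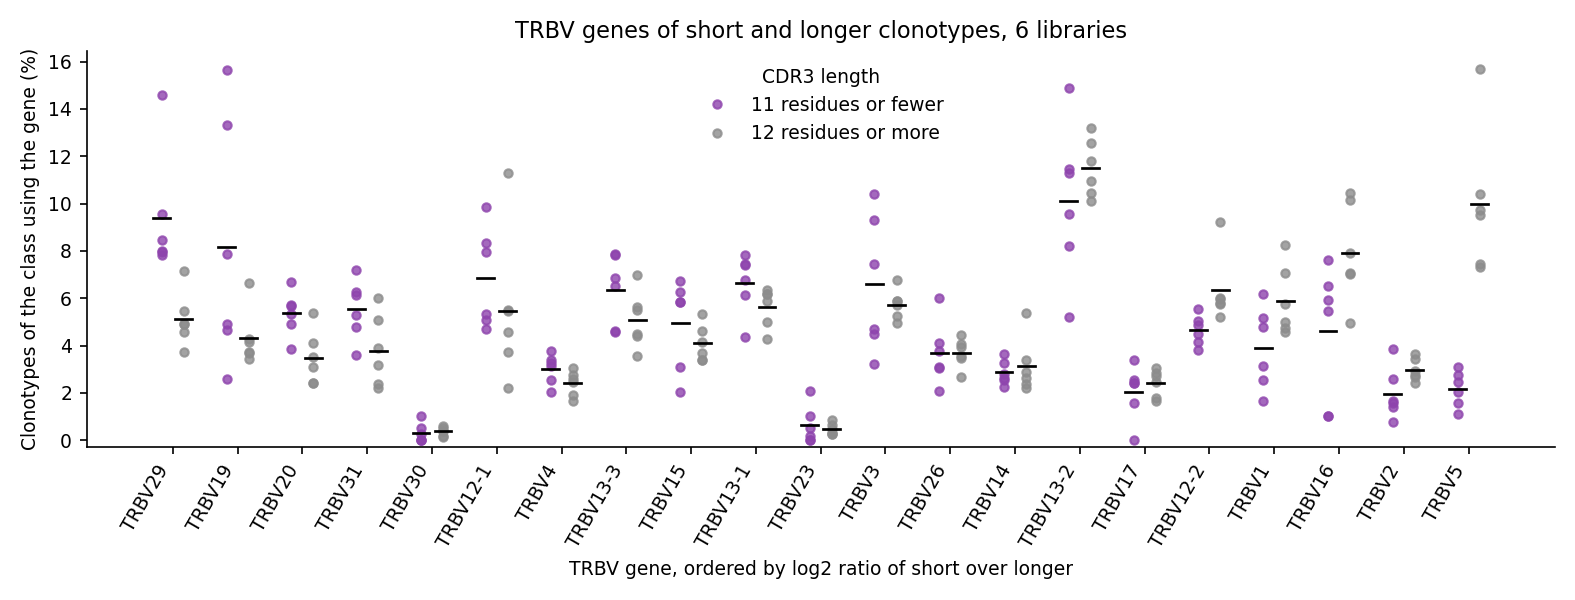
Percent of short (purple) and longer (grey) clonotypes that used each of 21 TRBV genes, 1 point per library and a black line at the mean of the 6 libraries, with genes ordered by the log2 ratio of short over longer. TRBV5, at the right end, stands at 1.09% to 3.10% of short and 7.31% to 15.7% of longer clonotypes.

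The 6 genes of the TRBJ2 cluster, the downstream of the 2 TRBJ clusters, supplied 58.2% to 80.6% of short and 63.3% to 69.2% of longer clonotypes. The 2 genes of the TRBV12 family supplied 9.58% to 13.7% of short and 7.97% to 17.1% of longer clonotypes, and the 3 of the TRBV13 family 17.2% to 28.8% of short and 18.3% to 24.9% of longer. All 3 pairs of ranges overlapped. Within libraries the TRBJ2 cluster went both ways, with 80.6% of short and 66.7% of longer clonotypes in distant tumor 2, and 58.2% and 63.3% in distant tumor 1. By reads these were 86.9% and 67.6%, and 42.3% and 56.5%. The most frequent V and J pair among short clonotypes was TRBV13-2 with TRBJ2-7 in both spleens (187 and 176 clonotypes), TRBV12-1 with TRBJ2-7 in treated tumor 1 (49) and TRBV19 with TRBJ1-4 in distant tumor 1 (26). It was TRBV29 with TRBJ2-7 in treated tumor 2 (18) and distant tumor 2 (21). Merging variants of 1 residue left 372 of 548 short clonotypes in treated tumor 1 and 131 of 192 in treated tumor 2. The distant tumors kept 306 of 390 and 301 of 355, and the spleens 3127 of 3155 and 4431 of 4497. The pairs were not counted after merging, so how many of these clonotypes are variants of a larger clone was not tested.

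No TRBV or TRBJ gene of the short class passed between tissues in edgeR. With reads split by TRBV gene and length class, 0% of 44 pairs were higher and 0% lower in treated against distant tumors, with 7 at an unadjusted p under 0.05, and DESeq2 called 7, of which 4 were short. Short TRBV15 reads were 0.242% and 0.155% of reads in the treated tumors and 0.0397% and 0.0608% in the distant tumors, so the groups did not overlap (log2 difference 1.98, SE 0.663, adjusted p = 0.273 by edgeR). Short TRBV31 reads were 0.268% and 0.233% against 0.0558% and 0.109%, also without overlap (log2 difference 1.60, SE 0.629, adjusted p = 0.278). Short TRBV5 reads were 0.0196% and 0.00545% against 0.062% and 0.0876%, the opposite order (log2 difference -2.53, SE 0.994, adjusted p = 0.278). Each kept its direction under all 13 alternative fits. Single clonotypes held much of these reads, 117 of 128 for TRBV31 and 73 of 85 for TRBV15 in treated tumor 2, and 41 of 50 and 26 of 36 for TRBV5 in the distant tumors. Without each library's most read short clonotype of the gene, a comparison added after seeing the data, the treated and distant tumors overlapped for TRBV31 (0.133% and 0.020% against 0.0409% and 0.090%). They also overlapped for TRBV15 (0.177% and 0.0218% against 0.0198% and 0.0341%), and for TRBV5 they did not. TRBV5 then kept 6 and 2 reads in the treated tumors (0.00737% and 0.0036%) against 9 and 10 in the distant tumors (0.0112% and 0.0243%). These counts are near the 3 reads that a count of 0 allows. With all reads, short TRBV14 and TRBV3 were also higher in both treated tumors than in either distant tumor, and TRBV2 lower. Longer TRBV15 reads were also higher in the treated tumors, at 5.69% and 3.21% of longer reads, than in the distant tumors, at 2.65% and 2.68%. Longer TRBV31 and TRBV5 reads overlapped between treated and distant tumors. Between 2 and 2 libraries 0.333 is the smallest exact permutation p.

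Tumors against spleens gave 0% of the 44 pairs in either direction by edgeR, with 6 at an unadjusted p under 0.05 and 4 called by DESeq2, 2 of them short and lower. Short TRBV5 reads were 0.134% and 0.155% of spleen reads, above every tumor (log2 difference -2.22, SE 0.770, adjusted p = 0.250 by edgeR). Short TRBV15 reads were 0.284% and 0.376% of spleen reads, also above every tumor (log2 difference -1.73, SE 0.529, adjusted p = 0.250). Short TRBV1 reads were 0.299% and 0.275% in the spleens and 0.0356% to 0.178% in the tumors (log2 difference -1.86, SE 0.698, adjusted p = 0.276). This order was not particular to the 3 genes. Short reads of TRBV12-2, TRBV13-2, TRBV16, TRBV20, TRBV31 and TRBV4 also lay above every tumor in both spleens, as did the short class as a whole. Of the genes just listed, TRBV31 and TRBV4 kept this order among longer reads and the others did not. Without treated tumor 1, 6 pairs passed, all of them short and lower in tumors.

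With reads split by TRBJ gene and class, 0% of 24 pairs were higher and 0% lower in either comparison by edgeR, with 2 at an unadjusted p under 0.05 in each and 1 called by DESeq2 in each. Short TRBJ2-2 reads were 0.0577% and 0.229% in the treated tumors and 0.0198% and 0.0122% in the distant tumors (log2 difference 3.13, SE 1.17, adjusted p = 0.254 by edgeR). Of the 126 such reads in treated tumor 2, 117 belonged to the TRBV31 clonotype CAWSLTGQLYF. Short TRBJ2-4 reads were 0.365% and 0.372% in the spleens and 0.0393% to 0.114% in the tumors (log2 difference -2.49, SE 0.807, adjusted p = 0.249). Short TRBJ1-6 reads were 0.0443% and 0.037% in the spleens and 0.00372% to 0.0146% in the tumors (log2 difference -2.11, SE 0.850, adjusted p = 0.361). Each of these spleen ranges lay above the tumor range, and so did those of short TRBJ2-1 and TRBJ1-5 reads. Longer TRBJ2-4 reads had the same order, at 10.2% and 9.59% of longer reads in the spleens and 5.04% to 9.04% in the tumors. So did longer TRBJ1-5 reads, while longer TRBJ1-6 and TRBJ2-1 reads did not.

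By construction a short CDR3 has fewer residues, and the difference was largest between the segment ends. A V or J end was taken as the run of residues that match the commonest start of that V gene or the commonest end of that J gene. In spleen 1 a short CDR3 averaged 3.74 V residues, 4.47 J residues and 2.49 residues between, against 4.10, 5.55 and 4.41 for longer ones. Spleen 2 gave 3.66, 4.47 and 2.56 against 4.08, 5.51 and 4.45. In the tumors a short CDR3 averaged 2.79 to 3.40 V residues, 3.98 to 4.20 J residues and 3.18 to 3.52 residues between. Longer CDR3s of the tumors also had a longer middle than those of the spleens, at 5.46 to 6.08 residues. Without clonotypes of 1 read, the middle of short CDR3s averaged 1.76 to 2.30 residues in the tumors and 2.00 to 2.02 in the spleens, so the tissues overlapped. For longer CDR3s it was 4.06 to 4.53 in the tumors and 3.87 to 3.89 in the spleens, without overlap. A CDR3 with no residue between the matched ends made up 3.83% to 4.69% of short and 0.0282% to 0.0945% of longer clonotypes. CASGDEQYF is such a sequence.

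In the residues between the ends, short clonotypes held less glycine, 18.9% ± 2.75 against 23.8% ± 2.66 (SD, n = 6), lower in 6 of 6 libraries. They held more glutamate, 7.39% ± 1.40 against 5.42% ± 0.908, higher in 6 of 6. Methionine, glutamine and tyrosine were also higher in 6 of 6 libraries, and proline, threonine and tryptophan lower in 6 of 6. None of the 20 amino acids passed correction, also under each alternative run. Runs that left out a library could not pass, since 5 pairs allow no exact paired permutation p below 0.0625. With 6 pairs one could pass only if many amino acids reached the smallest p together. Glycine was lower in every library under each alternative run, and the others were not as steady. With the first and last 4 residues taken as the ends, glutamine turned to a mean difference of -0.707 percentage points and proline and threonine were higher in 2 libraries. Weighted by reads, tyrosine turned to -0.217. With all libraries and matched ends, for these 8 the exact paired permutation p was 0.03125, the smallest 6 pairs allow, and 0.0781 adjusted over 20.

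Short clonotypes recurred between the replicate numbers more often than longer ones. Of short clonotypes, 8.94% in treated tumor 1, 9.74% in distant tumor 1 and 15.4% in spleen 1 were found in a library of the other number, as were 8.85%, 13.5% and 11.1% in treated tumor 2, distant tumor 2 and spleen 2. For longer clonotypes the values were 5.53%, 6.38% and 10.1% in number 1 and 5.34%, 7.04% and 7.33% in number 2. The short class was higher in 6 of 6 libraries, by a mean of 4.31 percentage points (two-sided exact paired permutation p = 0.03125, the smallest 6 pairs allow). The libraries share clonotypes with each other, so the 6 differences are not independent, and with the difference averaged per number the exact p was 0.5, the smallest 2 units allow. Without spleen 1 the mean difference was 1.68 percentage points, higher in 4 of 5 libraries (exact p = 0.1875), and without spleen 2 it was 2.15, higher in 4 of 5 (exact p = 0.125). With 5 libraries the smallest p is 0.0625. At equal depth of 41115 reads it was 3.29 percentage points.

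The difference was carried by length 11. At that length, 10.8% to 15.9% of clonotypes were found in the other number, and at length 12 it was 5.50% to 15.2%. At length 15 it was 3.19% to 7.38%, and at length 10 it was 0% to 16.9%. With the threshold at 10 residues the difference was 0.0457 percentage points, higher in 3 of 6 libraries (exact paired permutation p = 1). Clonotypes of length 9 were found in the other number in 0% to 11.1% of cases, on 7 to 126 clonotypes per library. Length 11 alone exceeded longer clonotypes by 5.77 percentage points in 6 of 6 libraries (exact p = 0.03125), a comparison added after seeing the data.

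The order turned around when the number of residues between the matched ends was held equal. With 3 residues between, 4.90% to 8.51% of short and 12.1% to 18.3% of longer clonotypes recurred in the other number, and the short class was lower in 6 of 6 libraries, by a mean of -9.77 percentage points (exact paired permutation p = 0.03125). With 1 residue between, the mean difference was -15.1 (exact p = 0.03125, lower in 6 of 6), and with 2 it was -9.26 (exact p = 0.0625, lower in 5 of 6, the exception being distant tumor 2). These comparisons were added after seeing the data. As in the comparison of all clonotypes, the 6 differences are not independent, since the libraries share clonotypes and come from 2 mice. A short CDR3 with the same middle as a longer one has fewer matched V or J residues, and whether that moves with recurrence was not tested.

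**Figure D5:**
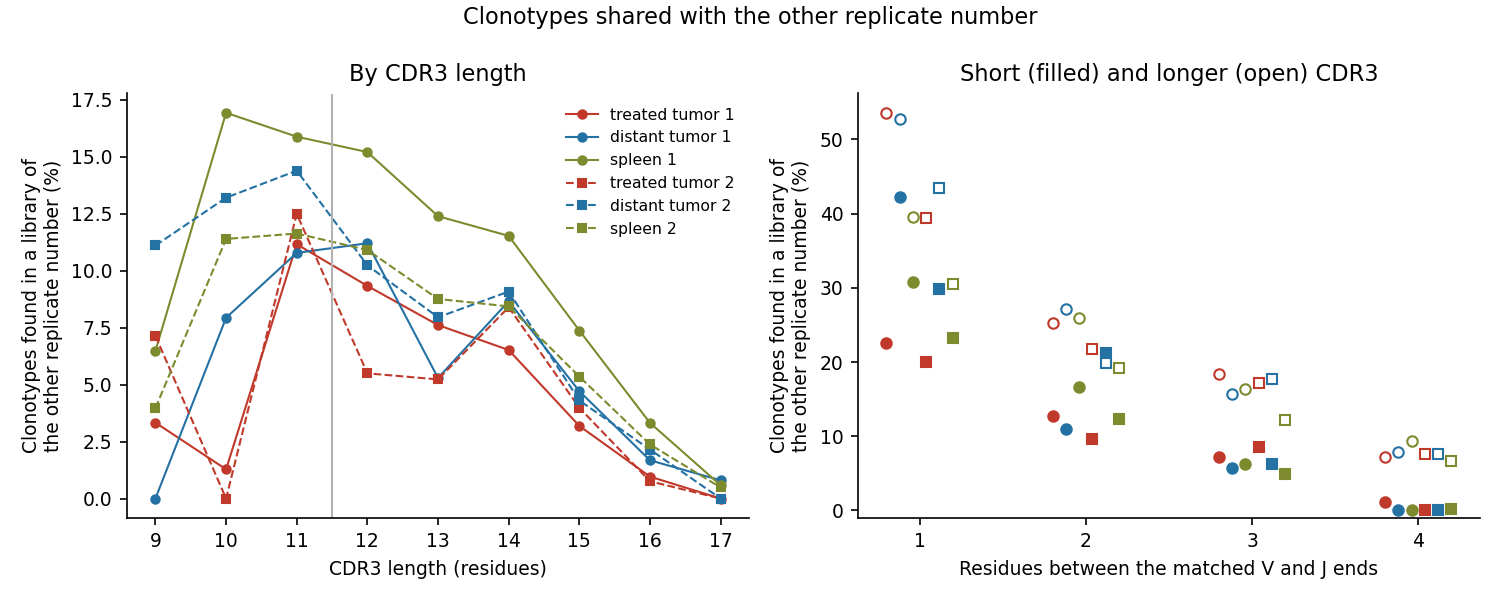
Left, percent of clonotypes of each CDR3 length that were found in any library of the other replicate number, for each library, with a grey line at the threshold between 11 and 12 residues. Right, the same percent for short (filled) and longer (open) clonotypes with 1 to 4 residues between the matched V and J ends, where short clonotypes with 3 residues between stand at 4.90% to 8.51% and longer ones at 12.1% to 18.3%.

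Short tumor clonotypes were also found in the spleens. In distant tumor 2, 22.3% of short and 14.4% of longer clonotypes were in spleen 2, and 13.0% and 5.24% in spleen 1. In distant tumor 1, 12.8% of short and 8.28% of longer clonotypes were in spleen 1, and 9.23% and 4.77% in spleen 2. Treated tumor 1 gave 8.58% and 5.67% with spleen 1, and treated tumor 2 gave 8.33% and 7.11% with spleen 2. The treated and distant tumor of number 1 shared 41 short clonotypes, which held 47.9% of the short reads of the treated and 47.5% of those of the distant tumor. Shared longer clonotypes held 39.9% and 46.3% of longer reads there. Those of number 2 shared 11 short clonotypes, 5.73% of the treated and 3.10% of the distant tumor, against 6.15% and 4.43% of longer ones, so here the short class was lower. They held 37.1% and 14.5% of short reads, against 44.2% and 30.1% for the longer class. Of all short clonotypes 92.3% were in 1 library, 567 were in 2 and 3 were in all 6. Of longer clonotypes 94.6% were in 1 library and 16 were in all 6.

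Clone size, the mean number of reads per clonotype, did not differ in one direction. Short clonotypes averaged 1.58 reads in spleen 1 and 1.57 in spleen 2, against 1.51 and 1.48 for longer ones. In treated tumor 1 they averaged 7.80 against 7.25. In the other tumors the mean was lower for short clonotypes, at 6.86 against 8.21 in distant tumor 1, 6.40 against 8.44 in treated tumor 2 and 3.82 against 4.49 in distant tumor 2. The median was 1 read in both classes of every library. The percent of clonotypes with 1 read, short minus longer, differed by -4.86 to -2.09 percentage points in the distant tumors and the spleens. In treated tumor 1 that difference was 0.0641, and in treated tumor 2 it was -0.002. Clonotypes of 10 or more reads were more frequent among the short in each tumor, at 14.2% against 11.8% and 9.90% against 9.40% in the treated tumors, and 12.1% against 10.9% and 8.73% against 6.40% in the distant tumors. The mean log2 ratio was -0.11 (two-sided exact paired permutation p = 0.281, positive in 3 of 6 libraries) and turned to 0.19 without the 10 most read clonotypes of each library (exact p = 0.0625, positive in 5 of 6). In the spleens the largest short clone had rank 13 and 8, with 60 and 63 reads. In the tumors the rank ran from 15 to 50. Of the 100 most read places, short clonotypes took 5 and 2 in the treated tumors, 7 and 3 in the distant tumors and 3 and 6 in the spleens. Beside that, they made up 2.92% to 5.04% of a library's clonotypes.

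Most leading short clones were read mainly in one replicate number. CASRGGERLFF (TRBV19, TRBJ1-4) had 343 reads in treated tumor 1, 319 in distant tumor 1 and 0 in the other 4 libraries, and its share of 0.421% and 0.395% were within counting error of each other (Fisher's exact test, adjusted p = 0.442). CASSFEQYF (TRBV29, TRBJ2-7), of 9 residues, had 162 reads in treated tumor 2, 107 in distant tumor 2, 27 in spleen 2 and 0 in each library of number 1. Its tumor shares of 0.294% and 0.260% were also within counting error (Fisher's exact test, adjusted p = 0.335). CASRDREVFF (TRBV13-1, TRBJ1-1) had 267 and 158 reads in the tumors of number 1, 2 in spleen 1 and 0 elsewhere.

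Other leading clones lay mostly on one side. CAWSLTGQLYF (TRBV31, TRBJ2-2) had 117 reads in treated tumor 2, 0 in distant tumor 2 and 2 in spleen 2, so in the treated tumor its share was at least 29.1-fold higher, taking distant tumor 2 at 3 reads. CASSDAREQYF (TRBV13-1, TRBJ2-7) had 81 reads in treated tumor 2, 4 in spleen 1 and 0 elsewhere, at least 20.2-fold higher. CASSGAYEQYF (TRBV13-3, TRBJ2-7) had 139 reads in distant tumor 2, 24 in spleen 2 and 0 in treated tumor 2, at least 62.0-fold higher in the distant tumor. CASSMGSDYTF (TRBV19, TRBJ1-2) had 268 reads in distant tumor 1 and 48 in treated tumor 1, a 5.64-fold higher share, with 3 in spleen 1 and 1 in spleen 2. Fisher's exact test gave adjusted p-values of 6.55e-28, 2.18e-19, 1.33e-50 and 1.85e-37 for these 4, which compare 2 libraries and not the conditions.

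The 3 short clonotypes found in all 6 libraries included a leading tumor clone. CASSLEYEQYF (TRBV12-1, TRBJ2-7) had 462 reads in treated tumor 1, 142 in distant tumor 1, 73 in treated tumor 2, 3 in distant tumor 2 and 1 in each spleen. Its share was 3.22-fold higher in the treated than in the distant tumor of number 1 and 18.2-fold higher in number 2 (Fisher's exact test, adjusted p = 1.53e-38 and 6.54e-14). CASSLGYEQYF (TRBV3, TRBJ2-7) had 171 and 6 reads in the treated and distant tumor of number 1, 38 and 9 in number 2, and 9 and 10 in the spleens, 28.2-fold and 3.16-fold higher in the treated tumors (adjusted p = 1.78e-41 and 0.00111). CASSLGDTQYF (TRBV3, TRBJ2-5) had 12 and 31 reads in the tumors of number 1, 41 and 20 in those of number 2, and 7 and 10 in the spleens. It was 2.61-fold higher in the distant tumor of number 1 (adjusted p = 0.00374) and 1.53-fold higher in the treated tumor of number 2 (adjusted p = 0.128). Whether reads crossed between the indexed libraries was not tested.

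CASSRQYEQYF (TRBV19, TRBJ2-7), found in 5 libraries, had 81 reads in treated tumor 1, 15 in distant tumor 1, 2 in distant tumor 2, 1 in spleen 1 and 2 in spleen 2. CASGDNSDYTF (TRBV13-2, TRBJ1-2), also in 5, had 101 and 6 reads in the tumors of number 1, 1 in treated tumor 2 and 4 in each spleen. The most read short clonotype of spleen 1, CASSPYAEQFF (TRBV12-2, TRBJ2-1), had 60 reads there, 23 in treated tumor 1 and 9 in distant tumor 1. Its second, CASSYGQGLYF (TRBV29, TRBJ1-3), had 17 there, 24 in treated tumor 1 and 109 in distant tumor 1. The most read of spleen 2, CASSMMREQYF (TRBV19, TRBJ2-7), had 63 there, 18 in distant tumor 2, 1 in treated tumor 1 and 0 in treated tumor 2. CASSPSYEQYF (TRBV12-1, TRBJ2-7) had 50 reads in distant tumor 2 and 3 in spleen 2. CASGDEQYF (TRBV13-2, TRBJ2-7) had 16 and 15 reads in the spleens, 3 in distant tumor 2 and 0 in the other tumors. Of these 17 named clonotypes 9 used TRBJ2-7. Over all short clonotypes of a library that gene was used by 35.4% to 45.4%, and it held 31.0% to 57.2% of short reads.

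Set against clonotypes of any length, the short class leaned to the treated tumor in number 1 and to the distant tumor in number 2. Fisher's exact test with adjustment over all clonotypes of 10 or more reads in both tumors together called 73 of 117 short clonotypes (62.4%) higher in treated tumor 1, against 54.3% of 2250 clonotypes of any length, and 39 (33.3%) higher in distant tumor 1, against 41.6%. In number 2 it called 16 of 48 short clonotypes (33.3%) higher in the treated tumor, against 48.2% of 1113, and 28 (58.3%) higher in the distant tumor, against 45.8%. A clonotype found in 1 tumor with 10 reads had to differ, so these shares describe how reads were split between 2 libraries. With a minimum of 50 reads the lean in number 2 was not seen, as 6 of 10 short clonotypes were called higher in treated tumor 2 and 2 of them in distant tumor 2, against 69.8% and 22.9% of all 301 clonotypes tested. Present in both tumors were 21 of the 117 (17.9%, against 15.8% of clonotypes of any length) and 9 of the 48 (18.75%, against 21.6%).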

How the data were processed

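TCR-β was sequenced from total RNA of 2 treated tumors, 2 distant tumors and 2 spleens after adaptor ligation and 2 rounds of PCR with indexing and read in pairs of 300 bp on an Illumina MiSeq, per the labels' protocols. The deposited tables list, per the file headers, TRBV, TRBJ, CDR3, whole read counts with no normalization, and a percent that the authors rounded to 2 decimals; the deposited percent matched counts over unmarked reads to within 0.00499 points and was not used further. The aligner and germline reference: not given in the sources used here. The members and lists were chosen with earlier results of these data known.

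Reads or clonotypes per length, TRBV or TRBJ were fitted with edgeR 4.0.16 (R 4.3.3), scaled by the column total, features with low counts left out by filterByExpr, all 6 libraries sharing 1 spread; DESeq2 1.42.0 was an alternative. Adjusted p-values are Benjamini-Hochberg over the whole table, threshold 0.05. Exact tests used Python 3.11.15 and scipy 1.17.1. The scripts were tested on simulated data. Germline bases were matched for 20 of 23 TRBV and 12 of 12 TRBJ genes; V and J ends are modal sequences, with 4 residues assumed for the unmatched TRBV1, TRBV19 and TRBV24. The tables' own build is not stated.

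Named clonotypes are the 3 most read short ones per library, the 5 in most libraries and, per number, the most read one shared by both tumors; named genes are those past the threshold, up to 6 per direction, or else the 3 of lowest p. Alternatives were another scaling, tool, filter, threshold or depth, leaving out single-read or abundant clonotypes, merging variants of 1 residue, and leaving out each library. The replicate numbers were taken to pair libraries of a mouse from the series' statement of 2 mice. Deviations of short TRBV shares between same-numbered libraries correlated at -0.116, -0.0243 and -0.333 over 18 genes. Clonotype sharing followed the number between tumors. Clonotypes of distant tumor 1 held 39.9% of the longer reads of treated tumor 1, and those of distant tumor 2 held 15.4%. Clonotypes of treated tumor 2 held 30.1% of the longer reads of distant tumor 2, and those of treated tumor 1 held 6.44%. For distant tumor 1 the spleens went the other way, 35.0% with spleen 1 and 42.7% with spleen 2. The pairing was not tested further.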

Additional observations from a re-analysis of the deposited data

Results flagged for a closer look

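The treated minus distant difference in the share of short CDR3s had opposite signs in the 2 numbers, 1.93 and -1.06 percentage points of reads and 0.953 and -0.929 of clonotypes; with 1 pair per number, the difference between the numbers was not tested.

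Among 17 sets of libraries examined for a single library far from the rest, 4 had one, where chance gives about 1 in 20. In each the value is the percent of short clonotypes minus that of longer ones. Treated tumor 2, which had the fewest short clonotypes (192), stood alone with 3.88 percentage points for TRBV31, 0.878 for TRBJ2-2 and 4.66 for TRBJ1-3. Treated tumor 1 stood alone with -5.40 for TRBJ2-4.

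Sequences that carry a stop mark, and so encode no receptor, enter no comparison above. Among those that run from C to F or W, 5.08% (spleen 1) to 12.5% (treated tumor 2) had 11 residues or fewer. In the 4 tumors this was 7.81% to 12.5%, above the 2.92% to 4.90% of unmarked clonotypes there. In the spleens it was 5.08% and 6.10%, beside 5.04% in both.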

How the results depend on the processing

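The treated against distant difference in short reads turned to -0.253 percentage points without the 10 most read clonotypes. That in short clonotypes turned to -0.0326 without CDR3s of 7 or fewer residues, -0.446 without clonotypes of 1 read, -0.0652 with variants merged and -0.0577 at equal depth. Leaving out each library, these differences ran from -1.07 to 1.94 for reads and -0.973 to 0.998 for clonotypes; tumors against spleens stayed negative, -2.35 to -1.35 and -1.47 to -0.813. Publicness ran from 1.68 to 4.83 points without a library, 0.0457 at 10 residues, and -15.1, -9.26 and -9.77 with 1, 2 and 3 residues between the ends. Clone size turned to 0.0772 (log2) with a threshold of 12 and 0.19 without the 10 most read clonotypes; without single libraries it ran from -0.148 to -0.0471.

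Calls moved as follows, the cause not tested where no construction shows it. TRBJ usage gave 4 genes with TMM or DESeq2, 7 to 10 without single libraries, and 12 (2 higher, 10 lower) with variants merged or without clonotypes of 1 read. TRBV usage gave 3 at a threshold of 12, 1 with TMM, 3 without the low-count filter, 1 by reads, and 1 to 5 without single libraries. Lengths between treated and distant tumors gave 1 with DESeq2, 2 counted once, 0 to 3 without single libraries. Between tumors and spleens they gave 4 with DESeq2, 2 with TMM, 1 without the filter, 0 to 4 without single libraries. TRBV by class gave 7 and 4 with DESeq2, and 0 to 1 and 0 to 6 without single libraries. TRBJ by class gave 1 and 1 with DESeq2, and 0 to 1 and 0 to 2. With a minimum of 5 reads Fisher's test called 84 of 158 short clonotypes (53.2%, against 46.2% of all) higher in treated tumor 1. It called 65 (41.1%, against 46.9%) higher in distant tumor 1. In number 2 it called 20 of 85 (23.5%, against 31.0%) and 60 (70.6%, against 61.8%). With 50 reads it called 17 of 24 and 6 of 10 in the treated and 5 and 2 in the distant tumors.

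Single values turned sign as follows (log2). TRBJ2-4 was 0.0171 with DESeq2, and TRBV4 -0.13 by reads. Between treated and distant tumors, length 9 was -0.11 with TMM and -0.0143 with DESeq2, and without single libraries -0.41 to 1.33. Length 10 was -0.35 with TMM, -0.32 with DESeq2, -0.11 counted once and -0.17 without the top 10, and -1.15 to 0.74 without single libraries. Length 11 was -0.29 with TMM, -0.24 with DESeq2, -0.0374 counted once, -0.10 without the top 10, and -0.68 to 0.70 without single libraries. Between tumors and spleens, length 8 was 0.23 counted once, and length 12 -0.0433 without clonotypes of 1 read; without single libraries length 9 ran from -0.00997 to 0.86 and length 12 from -0.14 to 0.20. TMM moved the median log2 value of all features from 0.07 to -0.09 for TRBV usage, from 0.22 to -0.20 for lengths between treated and distant tumors, and from -0.28 to 0.38 for TRBV by class between tumors and spleens.

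With the replicate number as a block, length 10 was -0.0914 between treated and distant tumors. Publicness kept its 4.31 points with an exact permutation p = 0.5, as pairing leaves 2 units. The block gave 8 TRBJ genes, 4 TRBV genes and 0 calls in all tissue fits. TRBV31 (adjusted p = 0.139 by edgeR) and TRBV4 (0.267) lost their calls under the block. The 2 mice and the few short reads per feature in tumors limit all tissue comparisons.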

Other observations

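A short CDR3 amino acid sequence was more often found with several TRBV genes. Of 6928 short CDR3 sequences 767 (11.1%) occurred with more than 1 TRBV gene, against 11147 of 149723 longer ones (7.45%), and the most TRBV genes for 1 sequence were 10 and 15. Taken by CDR3 alone, 17.9% to 25.9% of short sequences were found in the other replicate number, against 8.68% to 17.8% of longer ones, higher in 6 of 6 libraries.

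Weighted by reads, the short class recurred more in 5 of 6 libraries, the exception being distant tumor 1. Short clonotypes found in the other number held 24.0% of short reads there, where the longer class held 47.4%. In treated tumor 1 the values were 31.7% and 27.0%. In treated tumor 2 the short class held 25.8% against 20.7%, and in distant tumor 2 it held 27.0% against 22.2%. In spleen 1 it held 24.4% against 14.4%, and in spleen 2 it held 18.7% against 11.02%.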
